A study of Mus musculus with 20 samples.

Results

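Established induced XEN (iXEN) cells were compared with mouse ES cells that had expressed Gata4 for 48 h, the last time point sampled while the conversion was in progress. The comparison took the 2 iXEN libraries and the 2 libraries labelled 48h, out of 20 single-cell libraries in the series, and summed the UMIs (unique molecular identifiers, the counted transcripts) of each library over the cells in which 500 or more genes were detected. These were 6053 and 7975 cells at 48h and 5912 and 6787 iXEN cells, 26727 in all. All 4 libraries came from a single engineered line. It had 1 Col1A1 allele carrying TetO-Gata4-mCherry, which encodes a fusion of Gata4 and mCherry. It also had 1 Rosa26 allele carrying M2rtTA, which turns TetO on when doxycycline is given, and 1 Gata6 allele carrying an H2B-Venus reporter. The source that the study cites for this reporter describes it as a loss-of-function allele. The 48h cells were ES cells in serum and LIF with doxycycline and were not sorted. The iXEN cells had been given doxycycline for several days and were collected after several more days without it. The study kept established iXEN cells in XEN medium, listed without LIF, and does not name the medium of the cells collected here. Conversion state, the presence of doxycycline, time in culture and any change of medium cannot be told apart in this comparison. The 2 libraries of a group were technical duplicates, so p-values measure the spread between libraries and not between independent conversions. The counts do not separate transcripts of the Gata4 transgene from those of the endogenous gene. How far 3′ reads of the fusion were counted as Gata4 is not known.

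The primitive endoderm is the extraembryonic lineage that splits from the epiblast in the blastocyst, and its main descendants are parietal endoderm, which lays down a thick basement membrane, and visceral endoderm, which takes up and secretes nutrients and carrier proteins for the embryo. XEN cells are self-renewing lines of this lineage. GATA4 and GATA6 are zinc-finger transcription factors that bind a short GATA motif, and forced expression of either in ES cells moves them towards a XEN-like state while the pluripotency network, held by OCT4 (Pou5f1), SOX2 and NANOG, is shut down.

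The 48h cells used held 57856321 and 87391119 UMIs in total and the iXEN cells 48141903 and 56997768. The median cell of the 48h libraries held 8466 and 10007 UMIs, and that of the iXEN libraries 7394.5 and 7441. Mitochondrial transcripts made up 1.90% to 2.71% of the UMIs in these 4 libraries. Any pair of the 4 libraries shared 44 to 76 cell barcodes. Replicate 1 of 48h was sequenced in the same project as both iXEN libraries, and replicate 2 of 48h in another one, so that the comparison without 48h replicate 2 stays within a project. Below, levels are in CPM, UMIs per 1000000 after TMM scaling (a per-library scaling factor from edgeR), given for replicate 1 and then replicate 2, and a change is the log2 fold change of iXEN over 48h with its standard error. Genes are described as called, higher or lower, when the adjusted p lay under 0.05 and the change was 1 or more or -1 or less.

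Of 15723 genes tested, 4338 were called (27.6%), 2222 higher in iXEN (14.1%) and 2116 lower in iXEN (13.5%). The median change over all genes tested was -0.013. Within the shared project, without 48h replicate 2, 3471 genes were called, and 3072 of them were called in the same direction as with all libraries. Scaled by UMI totals alone, without TMM, the median of all genes was 0.37 and the calls split into 3392 higher and 1275 lower, so the sign of small changes rests on the scaling. With the ribosomal protein genes, which took different shares of the UMIs, removed before TMM, the split was 2237 higher and 2010 lower.

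**Figure D1:**
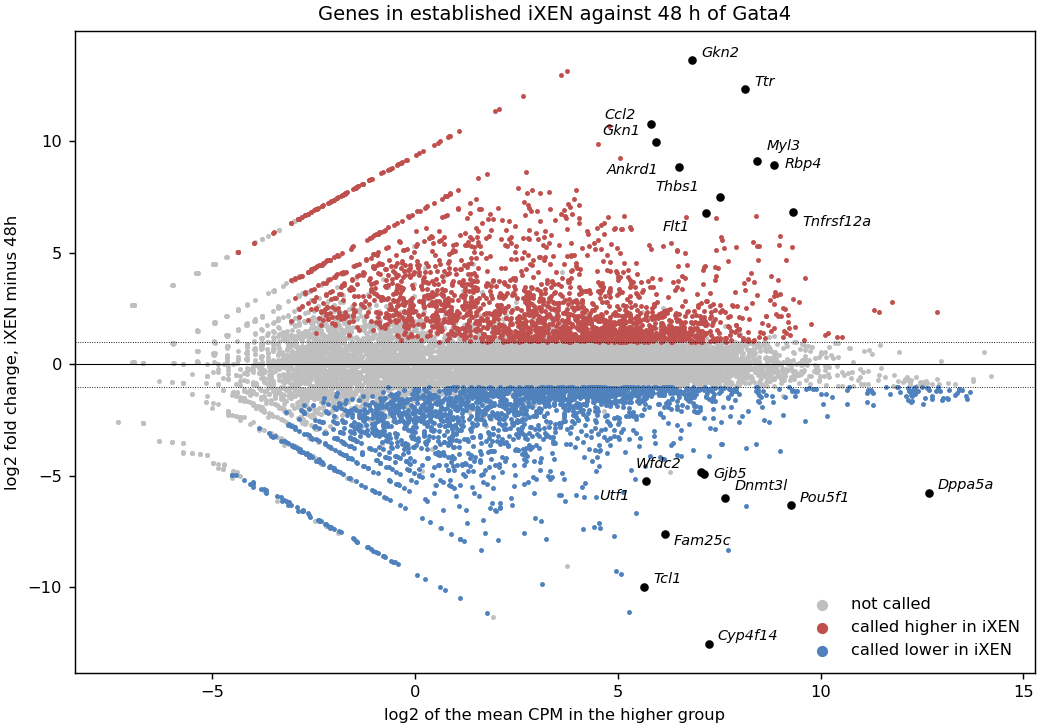
Each point is a gene, with the log2 of its mean CPM in the higher group on the x axis and the log2 fold change of iXEN over 48h on the y axis. Red and blue points are genes called higher and lower in iXEN, grey points were not called, dotted lines mark changes of 1 and -1, and genes among the 10 highest and 10 lowest of the naming rule that the text names are labelled. The diagonal rows are genes with almost no UMIs in 1 of the groups, whose fitted changes follow their level.

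Genes of the pluripotency network fell strongly, and several of them had been at or above their ES cell level at 48h. Of 28 core and naive pluripotency factors tested, 24 were called lower in iXEN, none higher, and 4 were not called, with a median change of -3.27, and of -4.53 without iXEN replicate 1. Their summed level was 9880 and 8550 CPM in the ES libraries, 9340 and 9660 CPM at 48h, and 764 and 1100 CPM in iXEN, so this total was about as high after 48 h of Gata4 as before it. Dppa5a alone was at 5226 and 4192 CPM of the ES total and at 6217 and 6746 CPM of the 48h total, and the other members together were lower at 48h than in ES cells.

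Pou5f1 (chromosome 17, 35506018 to 35510772, GRCm38), the POU factor at the centre of the network, was at 528 and 447 CPM in ES cells, 587 and 641 CPM at 48h and 12.3 and 3.09 CPM in iXEN. The change from 48h to iXEN was -6.32 ± 0.63 (SE; adjusted p = 0.00018), whereas that from ES to 48h was 0.33 (adjusted p = 0.61). Dppa5a, an RNA-binding protein of ES cells, was at 86.3 and 154 CPM in iXEN (-5.75 ± 0.30, adjusted p = 1.3e-05). Both 48h libraries stood far above both iXEN libraries for these genes.

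Dnmt3l and Tfcp2l1 were also still high at 48h. Dnmt3l, the cofactor of the de novo DNA methyltransferases, was at 73.2 and 89.4 CPM in ES cells, rose to 150 and 252 CPM at 48h (1.31, adjusted p = 0.0060) and was at 3.83 and 2.54 CPM in iXEN (-5.98 ± 0.35, adjusted p = 1.8e-05). Tfcp2l1, a LIF target and naive factor, was at 155 and 139 CPM in ES cells and 162 and 117 CPM at 48h against 17.3 and 35.2 CPM in iXEN (-2.41 ± 0.31, adjusted p = 0.00059).
For the members that nearly vanished the UMIs say more than the fitted change. Gdf3, a TGF-beta family ligand, fell from 1418 and 4062 UMIs to 2 and 0, Tcl1, an AKT coactivator, from 1442 and 5834 UMIs to 3 and 3, and Dppa3, a maternal and germline factor, from 1965 and 1980 UMIs to 3 and 3. The scaled ratio of the summed Gdf3 UMIs was 2580 (95% exact interval 713 to 21300, counting error only).

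A second set of pluripotency genes was already low at 48h and fell again. Utf1, a chromatin-bound ES cell factor, was at 664 and 616 CPM in ES cells, 54.3 and 49.1 CPM at 48h and 2.03 and 0.678 CPM in iXEN (-5.26 ± 0.46, adjusted p = 9.1e-05). Zfp42 (Rex1) went from 782 and 582 CPM to 178 and 161 CPM and then to 18.3 and 26.9 CPM (-2.90 ± 0.23, adjusted p = 6.6e-05). Sox2, the partner of Pou5f1, was at 39.0 and 16.8 CPM at 48h and 4.14 and 0.363 CPM in iXEN (-3.63 ± 0.82, adjusted p = 0.0085), and the change was -6.26 without iXEN replicate 1.
Nanog was at 10.1 and 2.23 CPM at 48h and 0.698 and 0.0631 CPM in iXEN (-4.01 ± 0.85, adjusted p = 0.0064), a call that is lost when only the 4 libraries compared are fitted. Without iXEN replicate 1 the change of Nanog was -6.56, and without 48h replicate 1 it was -2.58. Esrrb, a nuclear receptor of naive cells, fell from 469 and 696 UMIs to 1 and 0. Fgf4, the ligand by which epiblast cells signal to primitive endoderm, was at 57.0 and 65.3 CPM in ES cells, 2.30 and 0.350 CPM at 48h and 0.0649 and 0.0158 CPM in iXEN (-4.95 ± 1.01, adjusted p = 0.0052). It had 4 and 1 UMIs in iXEN, and the change was -3.10 without 48h replicate 1.
Klf4 was the only member of the list with a change above 0. It was at 159 and 100 CPM at 48h and 169 and 289 CPM in iXEN (0.82 ± 0.31, adjusted p = 0.063), not called, with both iXEN libraries above both 48h libraries. It was called higher without 48h replicate 1 (1.18), without iXEN replicate 1 (1.16) and under scaling by UMI totals (1.18).

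**Figure D2:**
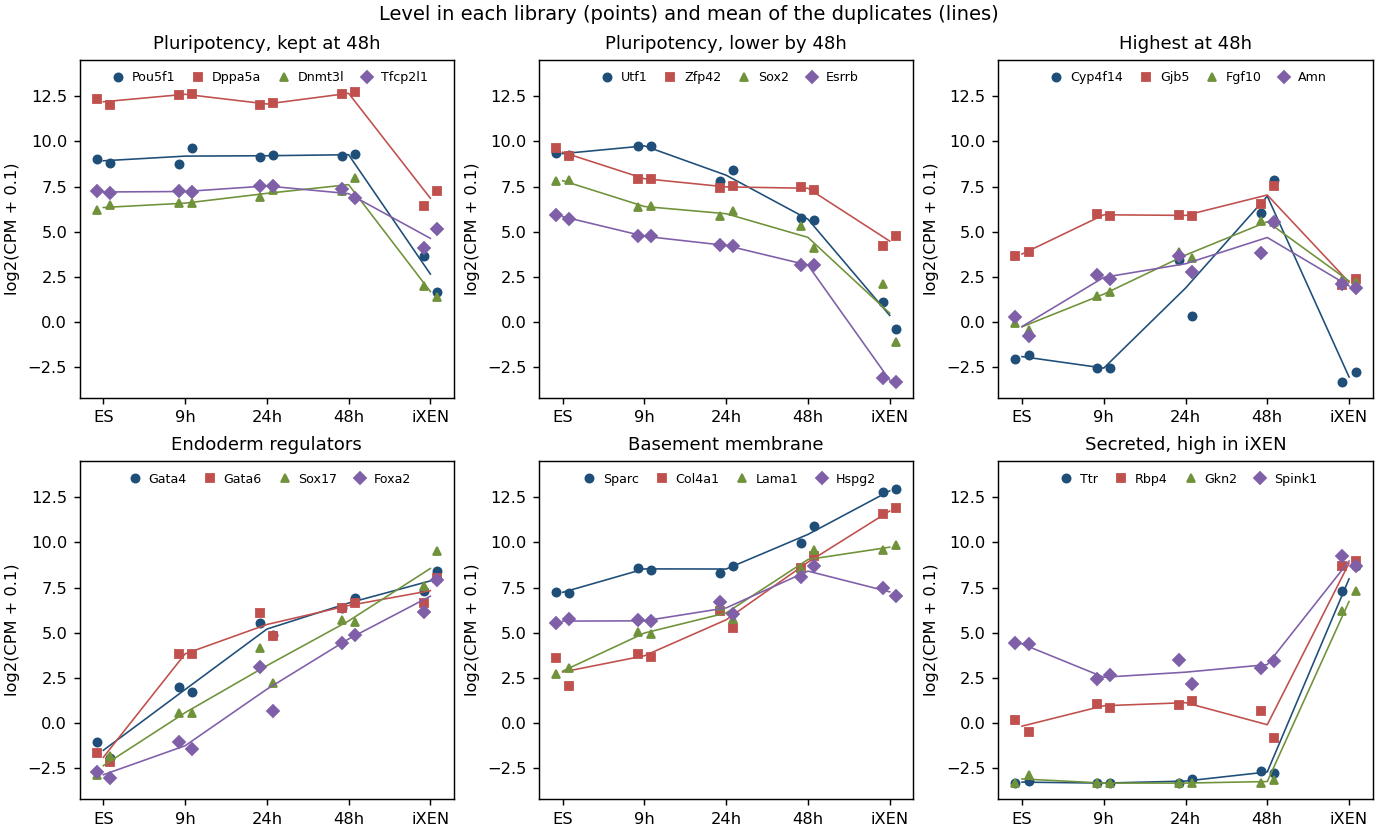
Each panel gives log2(CPM + 0.1) of 4 genes in the 10 libraries of the conversion series (ES, 9h, 24h, 48h and iXEN, 2 points each), with lines through the means of the duplicates. Pou5f1 and Dppa5a fall after 48h, Utf1, Zfp42, Sox2 and Esrrb are lower at 48h than in ES cells and lower again in iXEN, Cyp4f14 and Gjb5 are highest at 48h, and Ttr, Rbp4 and Gkn2 rise after 48h.

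Some of the genes that were lower in iXEN had their highest mean level at 48h among the 5 conditions. Cyp4f14 (chromosome 17, 32905070 to 32917342), a cytochrome P450 of the fatty acid omega-hydroxylase family, was at 0.145 and 0.187 CPM in ES cells, 66.7 and 234 CPM at 48h and 0 and 0.0473 CPM in iXEN. Its UMIs were 3532 and 18771 at 48h and 0 and 3 in iXEN, a scaled ratio of 6990 (95% exact interval 2390 to 33900). Gjb5 (chromosome 4, 127354809 to 127358181), a connexin gene of gap junctions, was at 12.6 and 14.4 CPM in ES cells, 91.4 and 187 CPM at 48h and 3.98 and 5.11 CPM in iXEN (-4.94 ± 0.35, adjusted p = 3.7e-05).
Fgf10, an FGF ligand, was at 0.845 and 0.629 CPM in ES cells, 47.4 and 46.3 CPM at 48h and 4.92 and 4.52 CPM in iXEN (-3.31 ± 0.22, adjusted p = 2.6e-05). Amn, which anchors cubilin in the absorptive membrane of visceral endoderm, was at 1.10 and 0.487 CPM in ES cells, 14.1 and 46.1 CPM at 48h and 4.27 and 3.53 CPM in iXEN (-2.95 ± 0.58, adjusted p = 0.0046; -1.87 without 48h replicate 2). Ascl2, a basic helix-loop-helix factor of the trophoblast, was at 3.10 and 3.79 CPM in ES cells, 24.7 and 11.7 CPM at 48h and 0.584 and 0.315 CPM in iXEN (-5.34 ± 0.50, adjusted p = 0.00014). Htra1, a secreted serine protease, was at 13.5 and 23.1 CPM in ES cells, 55.2 and 119 CPM at 48h and 8.79 and 17.9 CPM in iXEN (-2.71 ± 0.45, adjusted p = 0.0021). The 10 lowest genes also held Wfdc2, a secreted protease-inhibitor-like protein at 126 and 139 CPM at 48h and 4.19 and 5.12 CPM in iXEN, and Fam25c, at 90.0 and 52.3 CPM at 48h and 0.454 and 0.268 CPM in iXEN. Both were at 84.3 CPM or more in each ES library, so they had not first appeared with Gata4.

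Some regulators of primitive endoderm were higher in iXEN, and several of their calls were lost when single libraries were left out. Of 20 tested, 8 were called higher in iXEN, 1 lower, and 11 were not called, with a median change of 0.83. Over all genes tested 14.1% were called higher and 13.5% lower. With the sequencing project as a term 4 were called higher and 2 lower, and with all 20 libraries 5 and 1. Without either 48h library the share called higher was not far from that over all genes in the same fit. Such a fit leaves a single library in a group, so a lost call does not show that the change rested on the library left out. The median was 0.69 without 48h replicate 1 and 0.88 without 48h replicate 2. It was 0.45 without iXEN replicate 2 and 0.55 without iXEN replicate 1. Gata4 was at 0.382 and 0.157 CPM in ES cells, 83.5 and 120 CPM at 48h with doxycycline, and 158 and 347 CPM in iXEN after it was withdrawn (1.31 ± 0.43, adjusted p = 0.039). This call is lost without either 48h library, without iXEN replicate 2, with only the 4 libraries, with all 20, and with the sequencing project as a term. Gata6 was at 83.1 and 99.4 CPM at 48h and 100 and 259 CPM in iXEN (0.98 ± 0.47, adjusted p = 0.13) and was called only without iXEN replicate 1 or under scaling by UMI totals.
Sox17, the SRY-box factor that follows GATA6 in this lineage, was at 52.6 and 48.1 CPM at 48h and 189 and 751 CPM in iXEN (3.22 ± 0.76, adjusted p = 0.010), and the call is lost without either 48h library or without iXEN replicate 2. Foxa2, a forkhead factor of endoderm, was at 21.3 and 29.6 CPM at 48h and 70.3 and 241 CPM in iXEN (2.61 ± 0.75, adjusted p = 0.024), a call lost under the same omissions and with the project as a term or all 20 libraries in the fit. For Gata4, Sox17 and Foxa2, iXEN replicate 2 held more than 2 times the level of replicate 1, and without it their changes were 0.63, 1.90 and 1.46.
Other regulators were at the same order of level in both groups. Pdgfra, the receptor that marks primitive endoderm, was at 78.5 and 111 CPM at 48h and 80.1 and 123 CPM in iXEN (0.10 ± 0.30, adjusted p = 0.81). Sox7 was at 24.5 and 33.9 CPM at 48h and 27.0 and 33.5 CPM in iXEN (0.05 ± 0.37, adjusted p = 0.93), and Hnf4a, a hepatocyte and visceral endoderm factor, at 3.31 and 6.64 CPM at 48h and 6.10 and 4.34 CPM in iXEN (0.07 ± 0.41, adjusted p = 0.92). The libraries overlapped for each of them.
Nr2f2 (COUP-TFII) was at 0.982 and 0.512 CPM at 48h and 11.6 and 19.8 CPM in iXEN (4.41 ± 0.71, adjusted p = 0.0017). Fgfr2, the receptor for FGF in primitive endoderm, was lower in iXEN, at 17.9 and 14.6 CPM at 48h and 6.52 and 8.02 CPM in iXEN (-1.16 ± 0.34, adjusted p = 0.026), a call lost without any 1 of the 4 libraries or under scaling by UMI totals. Other genes far above their ES cell level at 48h did not pass: Foxq1 was at 269 and 254 CPM at 48h and 115 and 288 CPM in iXEN (adjusted p = 0.58), Runx1 at 74.0 and 91.3 CPM and 35.7 and 58.3 CPM (adjusted p = 0.30), Car4 at 111 and 73.3 CPM and 47.5 and 79.6 CPM (adjusted p = 0.23), and Srgn at 183 and 494 CPM and 548 and 794 CPM (adjusted p = 0.13). Srgn was called higher without 48h replicate 2 (1.87, adjusted p = 0.024), with thinned cells (1.07) and under scaling by UMI totals (1.35).

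Most parietal endoderm genes rose. Of 23 tested, 16 were called higher in iXEN, none lower, with a median change of 2.34. Sparc (chromosome 11, 55394500 to 55423183), a matrix glycoprotein that binds collagen IV, was at 154 and 148 CPM in ES cells, 1021 and 1903 CPM at 48h and 7014 and 7850 CPM in iXEN (2.35 ± 0.28, adjusted p = 0.00039). Thbd, the thrombomodulin gene, was at 0.302 and 0.687 CPM at 48h and 26.0 and 42.4 CPM in iXEN (6.07 ± 0.43, adjusted p = 3.7e-05). Krt18, a simple-epithelium keratin, was at 78.1 and 29.9 CPM at 48h and 782 and 796 CPM in iXEN (3.87 ± 0.64, adjusted p = 0.0019). Nog and Fst, secreted antagonists of BMP and of activin, were also higher: Nog was at 0.944 and 0.649 CPM at 48h and 14.6 and 17.0 CPM in iXEN (4.32 ± 0.54, adjusted p = 0.00050), and Fst at 57.9 and 83.5 CPM and 258 and 671 CPM (2.72 ± 0.57, adjusted p = 0.0060).

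Among basement membrane genes the collagen IV chain Col4a1 rose, and the laminin chain Lama1 did not pass the test. Of 25 basement membrane genes tested, 11 were called higher in iXEN and 4 lower, with a median change of 0.97. Over all genes tested 14.1% were called higher and 13.5% lower, so the 4 called lower were not far from the background. Without 48h replicate 1 or iXEN replicate 2 the medians were 1.95 and 1.51. Those fits tested 27 members, so their medians are not compared with 0.97. Under scaling by UMI totals 12 were called higher and 1 lower. Col4a1 (chromosome 8, 11198423 to 11312826) was at 12.1 and 4.03 CPM in ES cells, 384 and 600 CPM at 48h and 3036 and 3873 CPM in iXEN (2.81 ± 0.51, adjusted p = 0.0029). Lama1, the alpha chain of the first laminin of the embryo, was at 372 and 760 CPM at 48h and 775 and 942 CPM in iXEN (0.60 ± 0.34, adjusted p = 0.19), and it was called only without 48h replicate 2.
Smoc1, a calcium-binding matrix protein, was at 0.907 and 0.687 CPM at 48h and 13.6 and 15.1 CPM in iXEN (4.18 ± 0.32, adjusted p = 5.7e-05). Among the 4 members called lower, Hspg2 and Fbln1 were higher at 48h than in ES cells. Hspg2 (perlecan) was at 46.3 and 53.9 CPM in ES cells, 276 and 421 CPM at 48h and 180 and 131 CPM in iXEN (-1.16 ± 0.29, adjusted p = 0.012), a call lost without 48h replicate 2 or iXEN replicate 2 or under scaling by UMI totals, and Fbln1 was at 5.16 and 4.18 CPM in ES cells, 39.4 and 42.7 CPM at 48h and 8.91 and 9.81 CPM in iXEN (-2.13 ± 0.19, adjusted p = 0.00012).
Some enzymes that modify collagen rose as well. Of 25 genes of collagen folding and export, 8 were called higher and 2 lower (median 0.79), and under scaling by UMI totals 15 and 1 were (median 1.18). Without 48h replicate 1 the median was 0.53. Plod2, a lysyl hydroxylase, was at 96.2 and 106 CPM at 48h and 694 and 727 CPM in iXEN (2.81 ± 0.17, adjusted p = 1.9e-05), P3h2, a prolyl hydroxylase, at 1.89 and 3.61 CPM and 18.0 and 36.6 CPM (3.30 ± 0.51, adjusted p = 0.0014), and Creb3l1, a membrane-bound factor that drives secretory and collagen genes, at 4.57 and 3.31 CPM and 49.2 and 66.1 CPM (3.88 ± 0.24, adjusted p = 1.9e-05). The general secretory pathway moved less: of 33 genes, 5 were called higher and none lower, a share near the background, with a median of 0.24. The count was 2 without 48h replicate 1 (median 0.03), 8 without 48h replicate 2 (median 0.42) and 9 under scaling by UMI totals (median 0.62). Kdelr3, which returns proteins to the endoplasmic reticulum, was at 48.8 and 67.0 CPM at 48h and 236 and 267 CPM in iXEN (2.12 ± 0.21, adjusted p = 0.00017).

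**Figure D3:**
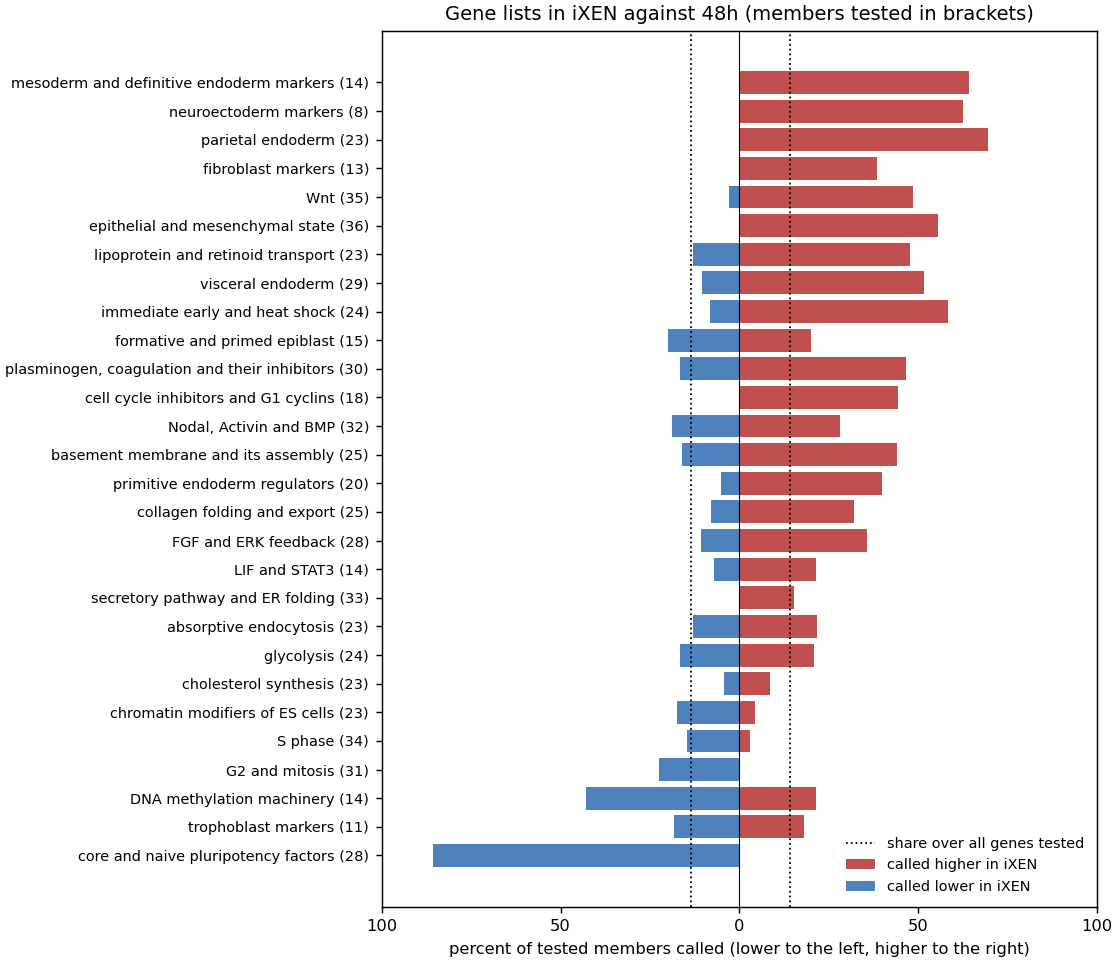
Bars give the percent of the tested members of each gene list called higher (right, red) or lower (left, blue) in iXEN, ordered by the median log2 fold change of the list. Dotted lines are the shares over all genes tested, 14.1% higher and 13.5% lower, the pluripotency factors are the list with the largest share lower, and the parietal endoderm list has the largest share higher.

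Several visceral endoderm genes and carrier proteins went from near 0 at 48h to high levels in iXEN. Of 29 visceral endoderm genes tested, 15 were called higher and 3 lower (median 1.71), and of 23 genes of lipoprotein and retinoid transport 11 were called higher and 3 lower (median 1.71). Ttr, the transthyretin that carries thyroxine and retinol-binding protein, had 3 and 4 UMIs at 48h and 9650 and 25792 UMIs in iXEN, or 157 and 407 CPM. Rbp4 (chromosome 19, 38116629 to 38125281), the retinol carrier bound by it, was at 1.47 and 0.462 CPM at 48h and 420 and 507 CPM in iXEN (8.95 ± 0.57, adjusted p = 2.1e-05).
Spink1, a trypsin inhibitor, was at 8.14 and 10.7 CPM at 48h and 614 and 409 CPM in iXEN (5.76 ± 0.46, adjusted p = 6.6e-05), and Ctsh, a lysosomal cathepsin, at 4.02 and 3.02 CPM and 215 and 155 CPM (5.72 ± 0.29, adjusted p = 1.1e-05). Afp, the fetal serum protein of visceral endoderm, rose from 1 and 0 UMIs to 244 and 182 UMIs, a scaled ratio of 453 (95% exact interval 80.9 to 17900), and its level in iXEN stayed low, at 3.96 and 2.87 CPM. Rdh10, which makes retinaldehyde, was at 4.16 and 5.88 CPM at 48h and 47.0 and 64.1 CPM in iXEN (3.47 ± 0.27, adjusted p = 6.5e-05), and Cyp26a1, which clears retinoic acid, at 2.12 and 2.98 CPM and 47.9 and 126 CPM (5.09 ± 0.46, adjusted p = 0.00012).
A pair of lipid carriers went the other way, among the 3 of 23 transport genes called lower, a share near the 13.5% over all genes. Apoc1 was at 77.1 and 42.8 CPM at 48h and 4.20 and 6.05 CPM in iXEN (-3.55 ± 0.43, adjusted p = 0.00045), and Pltp, the phospholipid transfer protein, at 44.7 and 38.7 CPM and 10.0 and 6.43 CPM (-2.34 ± 0.26, adjusted p = 0.00031). Of 23 endocytosis genes 5 were called higher and 3 lower, not far from the 14.1% and 13.5% over all genes. Their median was 0.02, and 0.56 without 48h replicate 2, and under scaling by UMI totals the counts were 8 and 2 (median 0.42). Clu, a secreted chaperone taken up by these receptors, was at 5.14 and 1.79 CPM at 48h and 351 and 327 CPM in iXEN (6.63 ± 0.49, adjusted p = 4.8e-05), and Lrpap1, the chaperone of the receptors, at 503 and 867 CPM and 357 and 235 CPM (-1.21 ± 0.27, adjusted p = 0.0085), a call lost without 48h replicate 2, without iXEN replicate 2, with the project as a term, with only the 4 libraries or under scaling by UMI totals.

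Gkn1 and Gkn2, neighbours on chromosome 6 (87345650 to 87350942 and 87373357 to 87379497) that encode secreted gastrokines known from the stomach, were both among the 10 highest genes of the naming rule. Gkn2 had 0 and 1 UMIs at 48h and 4455 and 9864 UMIs in iXEN, a scaled ratio of 15200 (95% exact interval 2730 to 602000), and Gkn1 had 4 and 4 UMIs at 48h and 1641 and 6157 UMIs in iXEN. The other members of the 10 highest were Ttr, Rbp4, Ccl2, a monocyte chemokine (4 and 0 UMIs at 48h and 4853 and 2157 in iXEN), Myl3, a cardiac myosin light chain, Ankrd1 and Thbs1, known as YAP targets, Tnfrsf12a, the TWEAK receptor, and Flt1, a VEGF receptor.
Tnfrsf12a was at 52.1 and 27.6 CPM in ES cells, 5.67 and 5.39 CPM at 48h and 386 and 891 CPM in iXEN (6.85 ± 0.49, adjusted p = 3.9e-05). Flt1 was at 2.19 and 0.462 CPM at 48h and 88.3 and 200 CPM in iXEN (6.80 ± 0.85, adjusted p = 0.00050). Thbs1, thrombospondin, was at 19.0 and 2.65 CPM in ES cells, 1.27 and 0.762 CPM at 48h and 153 and 215 CPM in iXEN (7.52 ± 1.00, adjusted p = 0.00065). Ankrd1 was at 0.416 and 0.0250 CPM at 48h and 120 and 61.7 CPM in iXEN (8.86 ± 1.74, adjusted p = 0.0057).
Myl3 was at 0.510 and 0.724 CPM at 48h and 72.4 and 619 CPM in iXEN (9.11 ± 1.01, adjusted p = 0.00030). Its annotated locus (chromosome 9, 110741861 to 110769798) overlaps that of Pth1r on the other strand (110722085 to 110747145), the parathyroid hormone receptor of parietal endoderm. In these GENCODE spans the shared stretch holds the start of both genes. The RefSeq start of Myl3, used for the promoter letters below, lies outside it, just after 110763677. The libraries were made from 3′ ends. Whether reads were counted for the other gene was not tested. Pth1r was itself called higher (2.14), at 81.8 and 143 CPM at 48h and 450 and 544 CPM in iXEN. The 4 libraries stood in the same order for both genes, and Myl3 differed more between the iXEN duplicates.

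The 250 bases before the starts of the 10 highest and 10 lowest genes were read from RefSeq (GRCm38.p6) for 7 and 8 of them, and searched on both strands for the GATA letters AGATAA or TGATAA and for the TEAD letters GGAATG. The GATA letters stood before 3 of the 7 (Gkn1, Gkn2 and Ankrd1) and before 2 of the 8 (Fam25c and Tcl1), and TEAD letters before 2 of the 7 (Ankrd1 and Myl3) and before 1 of the 8 (Dnmt3l). Over all 32851 promoters of the same length the shares with GATA and TEAD letters were 16.6% and 12.6%. Over the promoters of genes tested they were 9.73% and 11%, of genes called higher in iXEN 10.5% and 12.6%, and of genes called lower 11.2% and 10.9%, so neither set of letters was much more frequent before the genes that changed. The 3 stretches with GATA letters among the highest genes are shown because GATA4 is the factor that was expressed, with GATA and TEAD letters of either strand in capitals, 5′ to 3′ along the gene. They are chr6:87373115-87373364 (plus strand) for Gkn2, chr6:87350916-87351165 (minus strand) for Gkn1 and chr19:36119845-36120094 (minus strand) for Ankrd1.
Gkn2: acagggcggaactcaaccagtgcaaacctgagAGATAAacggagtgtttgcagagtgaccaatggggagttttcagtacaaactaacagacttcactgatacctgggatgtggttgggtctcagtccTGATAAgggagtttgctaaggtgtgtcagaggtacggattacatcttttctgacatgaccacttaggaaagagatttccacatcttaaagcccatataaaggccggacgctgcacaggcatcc
Gkn1: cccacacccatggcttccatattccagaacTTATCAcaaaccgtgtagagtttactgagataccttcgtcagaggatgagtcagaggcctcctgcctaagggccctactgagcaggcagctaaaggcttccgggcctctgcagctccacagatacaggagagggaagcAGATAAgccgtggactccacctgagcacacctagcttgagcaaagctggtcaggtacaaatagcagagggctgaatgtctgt
Ankrd1: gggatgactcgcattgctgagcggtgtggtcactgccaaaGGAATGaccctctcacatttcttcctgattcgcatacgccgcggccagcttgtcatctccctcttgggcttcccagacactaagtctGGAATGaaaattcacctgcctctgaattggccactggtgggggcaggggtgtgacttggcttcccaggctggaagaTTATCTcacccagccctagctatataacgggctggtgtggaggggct
Of these, in the Gkn2 stretch both GATA matches lie on the strand of the gene, and in the Ankrd1 stretch the single GATA match lies on the other strand and both TEAD matches on the strand of the gene.

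Many genes of coagulation, plasminogen and protease control also rose. Of 30 tested, 14 were called higher and 5 lower (median 1.15). Over all genes tested 14.1% were called higher and 13.5% lower, so the 5 called lower were not far from the background. Without iXEN replicate 1, where 32 were tested, the median was 0.41, and without 48h replicate 2 it was 1.09. With all 20 libraries in the fit, where 32 were tested, 2 were called lower. Under scaling by UMI totals 1 of 30 was called lower. Tfpi, the inhibitor of tissue factor, was at 26.0 and 30.2 CPM at 48h and 493 and 378 CPM in iXEN (3.96 ± 0.21, adjusted p = 1.3e-05). Procr, the receptor of protein C, was at 1.10 and 0.974 CPM at 48h and 33.9 and 32.0 CPM in iXEN (5.00 ± 0.27, adjusted p = 1.3e-05), and Anxa2, which binds plasminogen activator at the cell surface, at 10.4 and 16.8 CPM and 420 and 288 CPM (4.70 ± 0.50, adjusted p = 0.00025). F2r, the thrombin receptor, was lower, at 55.5 and 71.7 CPM at 48h and 23.8 and 28.4 CPM in iXEN (-1.28 ± 0.18, adjusted p = 0.00092), a call lost with all 20 libraries in the fit (adjusted p = 0.13) or under scaling by UMI totals, and so was Timp1, a metalloproteinase inhibitor, at 75.2 and 121 CPM and 38.1 and 39.7 CPM (-1.34 ± 0.26, adjusted p = 0.0043), a call lost without 48h replicate 2 or under that scaling.

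Signalling pathways differed in which parts moved. Over all genes tested 14.1% were called higher and 13.5% lower. The LIF and STAT3 counts and the count of FGF and ERK genes called lower were not far from these shares. In the FGF and ERK list 10 of 28 genes were called higher and 3 lower (median 0.55). The median was 1.55 without 48h replicate 1 and 0.36, with 5 genes lower, without iXEN replicate 1, and 0.99 under scaling by UMI totals. The 3 lower ones were the ligands Fgf4 and Fgf10 and the receptor Fgfr2. Among those called higher were phosphatases and other genes that ERK activity switches on. Dusp6, an ERK phosphatase, was at 29.0 and 36.0 CPM in ES cells, 1.25 and 0.562 CPM at 48h and 19.0 and 33.6 CPM in iXEN (4.89 ± 0.42, adjusted p = 8.6e-05), and Phlda1 at 45.2 and 33.3 CPM at 48h and 154 and 333 CPM in iXEN (2.64 ± 0.36, adjusted p = 0.00071). The fall to 48h and the later rise of Dusp6 were both past the threshold, the first at -5.20 (adjusted p = 5.1e-05).
In the Nodal, activin and BMP list 9 of 32 genes were called higher and 6 lower (median 1.01), and the counts were 14 and 5 without iXEN replicate 2 and 15 and 4 under scaling by UMI totals. Lefty1 and Lefty2, inhibitors and targets of Nodal, were lower: Lefty1 was at 14.2 and 16.5 CPM at 48h and 1.87 and 0.473 CPM in iXEN (-3.71 ± 0.50, adjusted p = 0.00068), and Lefty2 at 9.16 and 4.39 CPM and 1.30 and 0.0158 CPM (-3.37 ± 0.94, adjusted p = 0.021), a call lost without 48h replicate 1 or with only the 4 libraries, and the change was -8.61 without iXEN replicate 1. Id1, a BMP target, was lower, at 203 and 308 CPM at 48h and 118 and 81.8 CPM in iXEN (-1.35 ± 0.25, adjusted p = 0.0034), a call lost under scaling by UMI totals (-0.95).
In the Wnt list 17 of 35 genes were called higher and 1 lower (median 1.85). Without iXEN replicate 1 the counts were 13 and 2 and the median was 0.54, and within the project they were 9 and 2. With the project as a term they were 11 and 1. Frzb, a secreted Wnt antagonist, was at 0.0756 and 0.0624 CPM at 48h and 17.1 and 14.0 CPM in iXEN (7.80 ± 0.55, adjusted p = 6.6e-05). Wnt11 was at 1.42 and 1.24 CPM at 48h and 7.95 and 15.8 CPM in iXEN (3.16 ± 0.38, adjusted p = 0.00040), and the receptor Lgr4 at 8.80 and 6.89 CPM and 34.5 and 42.2 CPM (2.29 ± 0.21, adjusted p = 0.00012). Wnt6 was lower, at 29.6 and 47.5 CPM at 48h and 6.38 and 1.25 CPM in iXEN (-3.34 ± 0.60, adjusted p = 0.0030).
Of 14 genes of LIF and STAT3 signalling 3 were called higher and 1 lower (median 0.30), and the counts were 5 and 4 without iXEN replicate 1 and 6 and 1 under scaling by UMI totals (median 0.67). Lifr, the LIF receptor, was at 17.8 and 27.4 CPM at 48h and 96.8 and 105 CPM in iXEN (2.16 ± 0.22, adjusted p = 0.00019). The member that fell was the naive factor Tfcp2l1. Whether the iXEN cells had LIF in their medium is not stated, and its part was not tested.

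Many cytoskeletal, adhesion and immediate early genes were higher in iXEN. Of 36 genes of epithelial and mesenchymal state 20 were called higher and none lower (median 1.75), and they included keratins and claudins of epithelium as well as mesenchymal genes. Without 48h replicate 2, 12 were called, and without iXEN replicate 1, 17 were called higher and 1 lower (median 1.25). Cnn2, a calponin, was at 20.2 and 20.5 CPM at 48h and 261 and 326 CPM in iXEN (3.85 ± 0.30, adjusted p = 6.2e-05). Acta2, smooth muscle actin, was at 1.11 and 0.0624 CPM at 48h and 66.2 and 11.8 CPM in iXEN (6.15 ± 1.62, adjusted p = 0.016), and this call is lost without iXEN replicate 1, without 48h replicate 2 or with the project as a term. Tagln was at 7.78 and 0.811 CPM at 48h and 115 and 64.5 CPM in iXEN (4.40 ± 1.14, adjusted p = 0.016), a call lost without 48h replicate 2. Without 48h replicate 1 the changes of Acta2 and Tagln were 9.23 and 6.77.
Of 24 immediate early and heat shock genes 14 were called higher and 2 lower (median 1.52, and 2.51 without 48h replicate 1). Atf3, a stress-induced factor, was at 1.53 and 0.587 CPM at 48h and 81.6 and 122 CPM in iXEN (6.62 ± 0.55, adjusted p = 7.8e-05), Jun at 12.6 and 1.99 CPM and 132 and 140 CPM (4.23 ± 0.68, adjusted p = 0.0018), and Ier3 at 2.10 and 1.61 CPM and 36.4 and 50.2 CPM (4.55 ± 0.43, adjusted p = 0.00015). Hspb1, a small heat shock protein, was lower, at 344 and 503 CPM at 48h and 90.2 and 50.8 CPM in iXEN (-2.59 ± 0.29, adjusted p = 0.00031). These genes also respond to the dissociation of cells, and the part of handling in their rise was not tested.

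More genes of DNA methylation fell than rose. Of 14 tested, 6 were called lower and 3 higher (median -0.88, and -0.49 under scaling by UMI totals). Besides Dnmt3l, Dnmt3a was at 38.1 and 53.4 CPM at 48h and 15 and 12.4 CPM in iXEN (-1.74 ± 0.23, adjusted p = 0.00066), and Uhrf1, which recruits the maintenance methyltransferase, at 100 and 74.9 CPM and 34.1 and 21.2 CPM (-1.67 ± 0.24, adjusted p = 0.00099). Dnmt3b was at 67.6 and 62.6 CPM at 48h and 42.1 and 33.7 CPM in iXEN (-0.78 ± 0.28, adjusted p = 0.053), and was called lower with the project as a term (-1.03, adjusted p = 0.022).
The TET dioxygenases, which oxidise 5-methylcytosine, split. Tet2 was at 37.6 and 37.9 CPM in ES cells, 73.9 and 85.6 CPM at 48h and 7.32 and 5.64 CPM in iXEN (-3.62 ± 0.21, adjusted p = 1.8e-05). Tet1 was at 52.5 and 34.2 CPM at 48h and 12.8 and 2.82 CPM in iXEN (-2.48 ± 0.55, adjusted p = 0.0077), and the change was -3.94 without iXEN replicate 1. Tet3 was higher, at 13.4 and 14.4 CPM at 48h and 38.8 and 30.5 CPM in iXEN (1.32 ± 0.20, adjusted p = 0.0012).
Of 23 chromatin modifiers of ES cells 4 were called lower, a share near the 13.5% over all genes, and 1 higher (median -0.22). Under scaling by UMI totals the median was 0.14 and the counts were 1 and 3, and the median was -0.47 without 48h replicate 2 and -0.43 without iXEN replicate 1. Jarid2, a Polycomb cofactor, Mtf2 and Eed were among those called lower, and the calls of Mtf2 and Eed are lost under scaling by UMI totals. Eed, at -1.03 ± 0.15, lies at the threshold and is lost with RLE scaling, with DESeq2, without iXEN replicate 1 and with cells of 1000 or more genes. Jarid2 was at 184 and 143 CPM at 48h and 36.2 and 25.9 CPM in iXEN (-2.40 ± 0.21, adjusted p = 9.6e-05).

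Several cell cycle inhibitors rose. Of 18 inhibitors, G1 cyclins and their partners 8 were called higher and none lower (median 1.06). Without 48h replicate 2 the counts were 7 and 1 and the median was 0.42, without iXEN replicate 1 they were 8 and 2 with a median of 0.64, and with the project as a term the median was 0.65. Cdkn1a (p21) was at 42.8 and 28.7 CPM at 48h and 471 and 524 CPM in iXEN (3.80 ± 0.29, adjusted p = 5.5e-05), Cdkn2a, the Ink4a/Arf gene, at 8.73 and 5.23 CPM and 107 and 93.6 CPM (3.85 ± 0.53, adjusted p = 0.00075), and its neighbour Cdkn2b at 0.623 and 1.11 CPM and 15.3 and 18.1 CPM (4.25 ± 0.58, adjusted p = 0.00074). Ccnd2, a D-type cyclin, rose as well, from 13.7 and 22.8 CPM to 306 and 315 CPM (4.09 ± 0.61, adjusted p = 0.0011).
Of 31 genes of G2 and mitosis 7 were called lower and none higher (median -0.80), and of 34 S phase genes 5 were called lower, a share near the 13.5% over all genes, and 1 higher (median -0.53). The count of S phase genes called lower ran from 3 without 48h replicate 2 to 11 without iXEN replicate 2, and was 8 without 48h replicate 1 and 2 with the project as a term. That of G2 and mitosis genes was 4 without 48h replicate 2 and 4 with the project as a term. Ccnb2 was at 159 and 147 CPM at 48h and 54.2 and 49.1 CPM in iXEN (-1.57 ± 0.15, adjusted p = 0.00016), and Bub1b, a spindle checkpoint kinase, at 34.3 and 37.8 CPM and 13 and 9.40 CPM (-1.69 ± 0.19, adjusted p = 0.00031). Scaled by UMI totals both medians stayed below 0, at -0.42 and -0.15, with 2 genes called lower in each list.
The metabolic lists did not stand far from the shares over all genes, 14.1% higher and 13.5% lower. Of 24 glycolysis genes 5 were called higher and 4 lower (median -0.08, and 0.29 under scaling by UMI totals), and without 48h replicate 2 the counts were 3 and 2, and without iXEN replicate 2 they were 5 and 2. Slc2a1, the glucose transporter, was at 43.9 and 31.3 CPM at 48h and 112 and 158 CPM in iXEN (1.84 ± 0.29, adjusted p = 0.0016), and Slc16a1, a lactate transporter, at 29.2 and 27.8 CPM and 234 and 332 CPM (3.31 ± 0.20, adjusted p = 1.9e-05). Of 23 genes of cholesterol synthesis 2 were called higher and 1 lower (median -0.19, 0.21 under that scaling, -0.60 without iXEN replicate 1, -0.53 without 48h replicate 1, 0.23 without 48h replicate 2, 0.08 without iXEN replicate 2 and 0.33 with the project as a term), among them Insig1, the sterol sensor, at 7.48 and 14.6 CPM at 48h and 130 and 215 CPM in iXEN (3.96 ± 0.46, adjusted p = 0.00035).

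Ribosomal protein genes, a group chosen after its values were seen, took a smaller share of the UMIs in iXEN. These 84 genes took 36.5% and 38.2% of all UMIs in the ES libraries, 45.0% and 41.7% at 48h and 25.7% and 27.0% in iXEN. All 84 were tested, 57 were called lower in iXEN and none higher, and the median change was -1.16. Under scaling by UMI totals 19 were called lower and the median was -0.79, and without iXEN replicate 1 the count was 35 and the median -0.97. Reads of these genes are shared with many processed pseudogenes, so levels of single members are uncertain. The share over UMIs does not rest on the scaling factors, and both iXEN libraries lay below both 48h libraries.

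Several markers of cell types outside the endoderm and ES lineages were high in iXEN replicate 1 alone. Of 14 mesoderm and definitive endoderm markers 9 were called higher and none lower (median 3.72), but without iXEN replicate 1 the counts were 1 and 1 and the median was 0.01, and without 48h replicate 1 or 48h replicate 2 no member was called. In iXEN replicate 1, 11 of the 14 markers in the files reached 1 CPM or more and in iXEN replicate 2, 2 did. Their summed level was higher in replicate 2, at 132 and 244 CPM in iXEN. The list also holds Foxa2, at 70.3 and 241 CPM, which made up most of the sum in replicate 2. T (brachyury) was detected in 2.18% of the cells of iXEN replicate 1, each thinned to 2000 UMIs, and in 0 of the 6096 cells of replicate 2. Mixl1 was found in 1.86% and 0.0164%, and Mesp1 in 0.751% and 0%. At 48h these 3 genes were found in at most 0.0522% of cells.
Of 13 fibroblast markers 5 were called higher (median 2.13). None was called without iXEN replicate 1, where the median was 2.37, and none without 48h replicate 2 or with the project as a term, and 2 were called without 48h replicate 1. Their summed level was 7.78 and 3.82 CPM at 48h and 88.3 and 19.1 CPM in iXEN, most of it Acta2 in replicate 1. Col1a1, a collagen gene taken as a fibroblast marker here, was found in 0.657% and 0.0492% of iXEN cells. Of 8 neuroectoderm markers that passed the filter 5 were called higher, and the count changed when single libraries were left out. Fits without 1 library did not all test the same number of the 12 list members, so their counts are not compared. In iXEN replicate 1, 6 of the 12 reached 1 CPM or more, and in iXEN replicate 2, 2 did. The summed level of the 12 was 34.9 and 49.3 CPM in ES cells, 6.74 and 3.77 CPM at 48h and 36.5 and 49.8 CPM in iXEN. Sox21, the named member, did not rest on iXEN replicate 1, at 1.76 and 1.36 CPM at 48h and 18.5 and 37.3 CPM in iXEN (4.16 ± 0.60, adjusted p = 0.00099).
Of 15 formative and primed epiblast genes 3 were called in each direction, and without iXEN replicate 1 none was higher and 6 were lower. Over fits without 1 library their median of 1.15 ran from -0.21 without iXEN replicate 1 to 2.45 without 48h replicate 1. It was -0.41 with only the 4 libraries, where 11 of them were tested, and -0.24 with thinned cells, where 13 were. Over all genes tested 14.1% were called higher and 13.5% lower, so the 3 called in each direction were not far from the background. Of 11 trophoblast markers 2 were called in each direction, and none was called higher without iXEN replicate 1 (4 lower), without 48h replicate 1 (2 lower), without 48h replicate 2 (3 lower) or with the project as a term (3 lower). The only 2-cell-like marker that passed the filter, Usp17lc, had at most 1 UMI in any of the 4 libraries. The part that these cells of iXEN replicate 1 have in the Wnt, epithelial and mesenchymal results was not tested. The list counts without that library are given with those results.

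Single cells differed in the balance of pluripotency and endoderm transcripts. Every cell with at least 2000 UMIs was thinned to that number, which left 5743 and 7294 cells at 48h and 5327 and 6096 iXEN cells, and the UMIs of 8 pluripotency markers and of 10 endoderm markers were added up. At 48h, 90.1% and 97.3% of cells held UMIs of both sets, with a median of 13 and 14 pluripotency UMIs and 4 and 7 endoderm UMIs in a cell. In iXEN, 19.3% and 28.5% of cells held both, close to the 21.1% and 24.2% of ES cells, whose median was 0 and 0 endoderm UMIs. The ES share rested on Sparc, found in 20.6% and 22.0% of ES cells, against at most 1.71% for any other endoderm marker. The iXEN cells held a median of 0 and 0 pluripotency UMIs and 31 and 33 endoderm UMIs. Pluripotency markers supplied a median of 77.8% and 67.8% of the marker UMIs of a 48h cell. These values rested on Dppa5a. Without it, in a count added after the data were seen, a 48h cell held a median of 1 and 1 pluripotency UMIs, 69.5% and 76.2% of cells held UMIs of both sets, and the pluripotency share had a median of 27.3% and 16.7%, so endoderm markers then supplied more of the UMIs than pluripotency markers. In iXEN 7.13% and 7.09% of cells held both sets without Dppa5a, and in ES cells 20.3% and 23.6% did. The endoderm markers found most often at 48h were matrix genes. Sparc was found in 76.0% and 90.9% of 48h cells, Lama1 in 41.6% and 65.5% and Col4a1 in 38.6% and 55.8%. Each other endoderm marker was found in at most 36.8% of them.

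**Figure D4:**
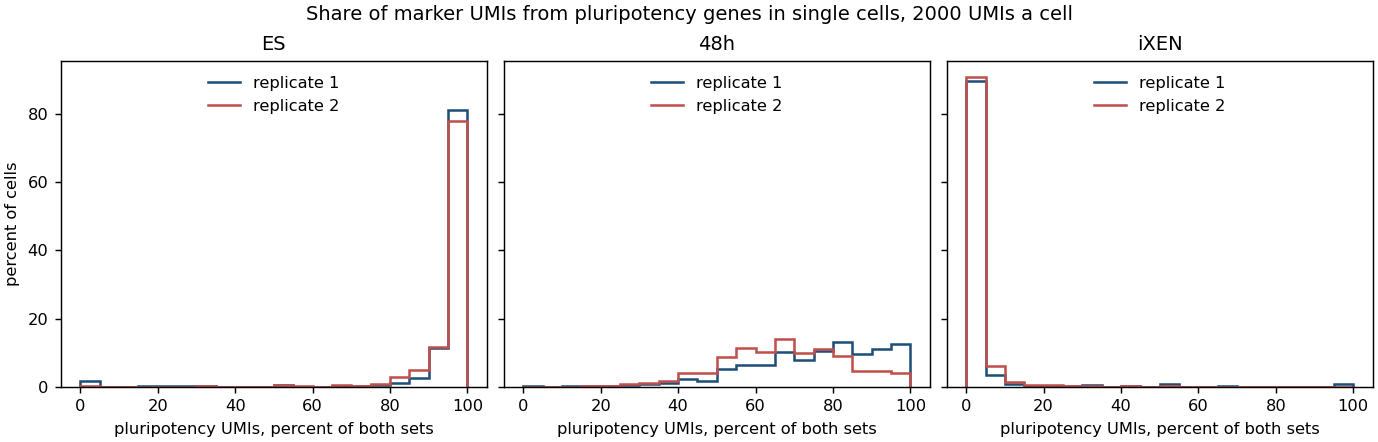
For each cell thinned to 2000 UMIs, the x axis gives the share of marker UMIs that came from the 8 pluripotency genes, the rest being from the 10 endoderm genes, and the y axis the percent of cells, with 1 line per library. ES cells lie near 100%, cells at 48h are spread from 40% to 100% in both libraries, and iXEN cells lie near 0% in both, with a small group of replicate 1 at the right end. Most pluripotency UMIs at 48h are of Dppa5a, and without it the median share at 48h is 27.3% and 16.7%.

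Pou5f1 was found in 64.1% and 67.2% of 48h cells and in 2.03% and 0.673% of iXEN cells. Dppa5a, the most abundant of the markers, was found in 98.9% and 99.9% of 48h cells and still in 13.4% and 23.3% of iXEN cells. Free Dppa5a RNA in iXEN cells cannot be told apart from expression. Sox17 was found in 9.19% and 8.16% of 48h cells and 35.9% and 69.9% of iXEN cells, Gata4 in 13.4% and 18.6% and in 32.2% and 49.1%, Gata6 in 13.1% and 16% and in 21.2% and 39.2%, and Col4a1 in 38.6% and 55.8% and in 87.3% and 96.2%. For each of these 4 genes both iXEN libraries lay above both 48h libraries.
Ttr was found in 0.0174% and 0% of 48h cells and in 21.9% and 38.8% of iXEN cells, and Rbp4 in 0.313% and 0.151% and in 21.7% and 24.4%. No UMI of 8 visceral endoderm markers was found in 59.9% and 48.7% of iXEN cells. The 10% of cells with the most of them supplied 71.7% and 60.1% of these UMIs. Ttr and Rbp4 were the most often found of the 8, and the others did not all rise. Amn fell from 2.44% and 7.01% of 48h cells to 0.976% and 0.738% of iXEN cells. Cubn went from 4.41% and 7.76% to 8.0% and 4.87%, and Hnf4a from 0.592% and 1.23% to 1.63% and 0.984%. Afp and Apob rose from 0%, to at most 0.92% of iXEN cells. For the endoderm set the top 10% of cells supplied 22.6% and 19.2% of the UMIs. Cells that held 2 cell types in a droplet were not removed from these shares. In iXEN replicate 1, 3.30% of cells held no endoderm marker, against 0.148% in replicate 2.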

How the data were processed

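Single-cell transcriptomes were made with the 10x Genomics 3′ v2 chemistry. Per the labels and the study's methods, the authors processed reads with SEQC at default settings on the mouse build mm10 and removed cells of low complexity or with more than 20% mitochondrial UMIs, and what they deposited is the count of UMIs per gene in every cell, in whole numbers and without scaling. Of 22936 symbols, 22012 matched GENCODE vM21, which also gave coordinates. UMIs were summed per library over cells with at least 500 genes.

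The 10 libraries of the ES to iXEN series (5 conditions, 5 residual degrees of freedom) were fitted in 1 model without covariates, after filterByExpr and TMM, with the quasi-likelihood test of edgeR 4.0.16 (R 4.3.3) and Benjamini-Hochberg adjustment over all 15723 genes, two-sided. The study noted batch effects among these time points, and the sequencing project was therefore tried as a term. DESeq2 1.42.0, other scalings and filters, left-out libraries, deeper cells, thinned cells and cells without the 6% highest Scrublet scores (scanpy 1.11.5) were alternatives. Counts were simulated for this comparison with 200 changed genes among 15723. The test recovered 92% of genes changed by 1.5 on the log2 scale and all of those changed by 2 or more, with 13 false calls. The simulation gave all libraries the same spread at a given level, changed no genes of low level and left the groups otherwise equal. It cannot show how the test behaves with duplicates of unequal spread or with as many changed genes as were called here. No doublets were removed in the main fit.

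The comparison and the 29 gene lists were chosen with earlier results of these data known, so lists are described by counts and medians and carry no test. Genes were named by a rule: the 10 highest and 10 lowest changes among called genes with at least 50 CPM in the higher group, libraries that do not overlap and a call that holds without 48h replicate 2; a fixed set of lineage genes; and up to 4 called genes each way per list with at least 10 CPM. Some genes that the rule named are not reported here. Pth1r, T, Mixl1, Mesp1, Col1a1 and the ribosomal protein genes were taken up after their values were seen. Ratios for genes with 1 to 3 UMIs in a group carry exact 95% binomial intervals, which cover counting error only.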

Additional observations from a re-analysis of the deposited data

How the results depend on the processing

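Duplicates differed by unequal amounts. Across genes, their log2 difference had a standard deviation of 0.52 in iXEN, 0.45 at 48h and 0.42 at 24h. In ES cells and at 9h it was 0.27 and 0.085. The main fit takes 1 spread per gene from all 10 libraries, so its adjusted p-values may be too low for this comparison. A fit of only the 4 libraries compared has fewer libraries to estimate the spread and leaves out the ES, 9h and 24h duplicates. The part of each in its lower count was not tested. The number of genes called stayed within 1.5 times of 4338 under each alternative but 1. With only the 4 libraries compared in the fit it was 2838 (1624 higher and 1214 lower). Over the other alternatives it ran from 3411 with cells thinned to 2000 UMIs to 4667 with UMI totals in place of TMM, DESeq2 called 4414, and leaving out 1 of the 4 libraries gave 3471 to 4602. In those fits the lone library of a group is assumed to vary like the duplicates of the other groups. UMI totals without TMM, the removal of ribosomal protein genes and the cell shares without Dppa5a were added after the data were seen. Of the 115 genes named, 86 kept their direction and their side of the threshold under all alternatives in which they were tested. Scaling by UMI totals ended the calls of Eed, F2r, Fgfr2, Hspg2, Id1, Lrpap1, Mtf2 and Timp1. Signs turned only for genes near 0 or resting on a single library: over fits without 1 library, Foxq1 ran from -1.19 to 0.14, Hnf4a from -0.37 to 0.65, Pdgfra from -0.25 to 0.38, Sox7 from -0.18 to 0.30, Usp17lc from -3.77 to 0.00, Mixl1 from -0.27 to 6.65 and Mesp1 from -3.51 to 7.95, and Sox7 was at -0.04 with the sequencing project as a term. With the replicate number as a block 4344 genes were called and no named gene changed its call. Libraries of the same number deviated together with a correlation of 0.514 for 24h and 48h, where the number follows the sequencing project, of 0.114 for 48h and iXEN and of -0.165 for ES and 9h. Both iXEN libraries are of 1 project, so the number is not taken as a pairing here. Of 8 genes given by their share of cells (Pou5f1, Dppa5a, Sox17, Gata4, Gata6, Col4a1, Ttr and Rbp4), 7 stayed on the same side without thinning and with cells thinned to 4000 UMIs, and for Gata6 the libraries overlapped without thinning. Genes under about 10 UMIs in a library have fitted changes that depend on the prior count of the fit.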
